A study of Homo sapiens with 4 samples.

Results

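The desmosome genes were followed in PC-3M-luc cells after RNAi against LSD1. The 10 genes encode the desmocollins DSC2 and DSC3, the desmogleins DSG2 and DSG3, the plakophilins PKP1, PKP2, PKP3 and PKP4, desmoplakin (DSP) and the tetraspan protein PERP. They were chosen by symbol, as structural parts of the desmosome, out of 22852 gene symbols in the count tables, and 9 of the 10 were among the 13252 genes with enough reads to test. PC-3M-luc is a metastatic derivative of the androgen-independent prostate carcinoma line PC-3 that carries a luciferase gene. The knockdown group holds 2 libraries from cells transfected with an RNAi duplex against LSD1, and the control group holds 2 libraries from cells that received a control duplex. All cells were collected 72 h after transfection with the same reagent, and the labels state neither the duplex sequences nor their number. The labels call the libraries biological replicates, and nothing more is said of separate cultures, so the p-values measure the spread between these libraries.

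Desmosomes are spot-like junctions that tie the intermediate filaments of neighbouring epithelial cells to each other. Desmocollins and desmogleins are cadherins whose outer domains bind across the gap between cells. Inside the cell their tails bind plakoglobin and plakophilins, armadillo-repeat proteins that in turn hold desmoplakin, and desmoplakin binds the keratin filaments. LSD1, encoded by KDM1A, is a demethylase of histone H3 and works in corepressor complexes. In stratified epithelia the set of cadherins and plakophilins shifts with the layer: DSG2, DSC2 and PKP2 are also made in simple epithelia, while DSG1, DSG3, DSC1 and PKP1 mark squamous tissue.

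The knockdown itself was large. KDM1A had 218 and 234 raw reads in knockdown libraries, against 2920 and 2892 in control libraries, a log2 fold change of -3.72 (edgeR quasi-likelihood test with Benjamini-Hochberg adjustment, adjusted p = 2.84e-24). Reads assigned to genes came to 12041283 and 12832064 in knockdown libraries, against 12474811 and 12411268 in control libraries. Levels are given as CPM (reads scaled to a common library size, with TMM factors). At these depths 3 reads in a library correspond to 0.234 to 0.249 CPM before TMM factors are applied. The RNA is from bulk cultures, so fewer cells that make a transcript and less transcript per cell cannot be told apart.

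Of the 9 desmosome genes tested, 4 rose, 2 fell and 3 did not pass an adjusted p of 0.05. PKP3, PKP2, DSC3 and PERP rose by 1.25-fold to 1.31-fold, whereas PKP1 fell 1.60-fold and DSC2 fell 1.38-fold. DSG2, DSP and PKP4 did not pass, and DSG3 had too few reads to test. Among all genes tested 36.1% were called, 18.2% higher and 17.9% lower, so that 6 called of 9 has to be read against a large transcriptome-wide change. Groups did not overlap in CPM for 7 of the 9 genes, the 6 that were called and DSG2, against 67.2% of all genes tested. Under the alternative settings 6 of the 9 genes were called, except for 5 with DESeq2 and without control replicate 1. Among all genes those settings called 36.2% with DESeq2 size factors, 36.6% with no normalization factor, 24.3% with no filter, 36.8% with a filter of 1 CPM, 25.5% with DESeq2, 36.0% with limma-voom, 39.8% with the replicate block and 33.4% with summed rows. Leaving out a library gave 29.6% without knockdown replicate 1, 28.8% without knockdown replicate 2, 27.1% without control replicate 1 and 28.6% without control replicate 2. The median log2 fold change of the 9 genes was 0.10, against 0.0023 over all genes. The called changes were of ordinary size for these data: the median absolute log2 fold change of all called genes was 0.48, and among the desmosome genes it was exceeded by PKP1 at -0.68 and by no other.

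**Figure D1:**
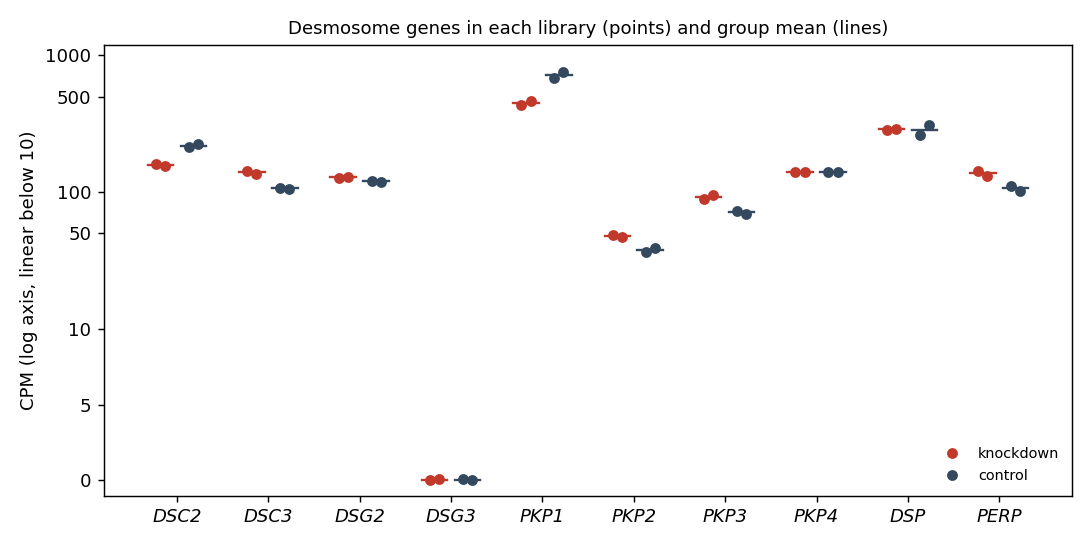
CPM of the 10 desmosome genes (vertical log axis, linear below 10) in each knockdown library (red points) and each control library (dark points), with the group mean as a line. PKP1 was the most abundant, at 434.5 and 466.9 CPM in knockdown libraries and 685.0 and 759.7 CPM in control libraries, and DSG3 lay at 0 or 1 read in every library.

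**Figure D2:**
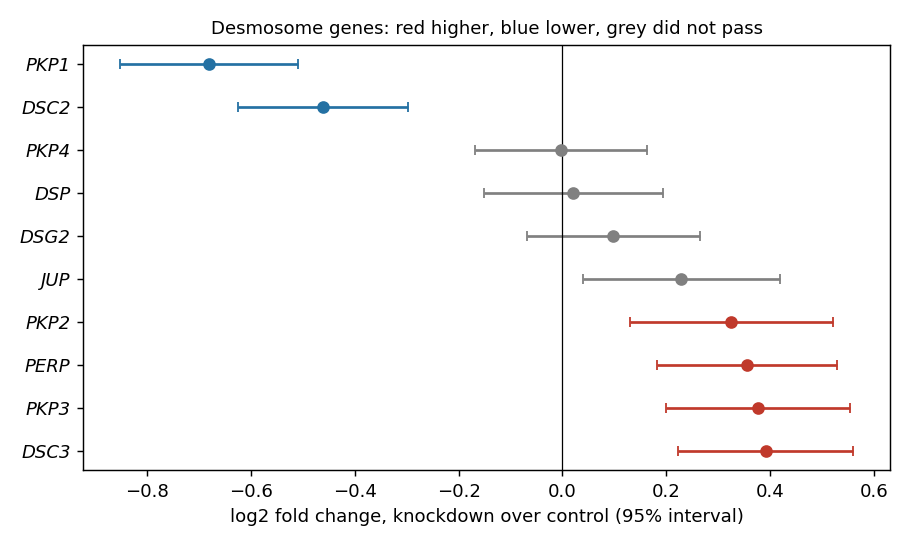
Log2 fold change, knockdown over control, with its 95% interval from the edgeR fit, for the 9 tested desmosome genes and JUP (plakoglobin). Red points rose, blue points fell and grey points did not pass; the intervals of PKP4, DSP and DSG2 span 0.

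The desmocollins moved in opposite directions. DSC2 (NM_004949, chromosome 18), the desmocollin found in all desmosome-bearing tissues, had 161.8 and 156.1 CPM in knockdown libraries, against 213.6 and 224.0 CPM in control libraries. Both knockdown libraries lay below both control libraries, and knockdown over control gave -0.46 ± 0.0806 on the log2 scale (SE; edgeR adjusted p = 3e-05). DSC3 (NM_024423, chromosome 18), a desmocollin of basal and squamous epithelial cells, had 143.6 and 135.2 CPM in knockdown libraries, against 107.6 and 104.9 CPM in control libraries. Here both knockdown libraries lay above both control libraries, by 0.39 ± 0.0829 on the log2 scale (SE; edgeR adjusted p = 0.000345). Within each library the DSC2 to DSC3 ratio per kilobase of transcript, which no scaling between libraries can alter, was 1.63 and 1.67 in knockdown libraries and 2.87 and 3.09 in control libraries. It depends on the length taken for DSC2. With the 12325 bases of its other annotated form in place of 4826, the ratio was 0.638 and 0.654 in knockdown libraries. In control libraries it was then 1.12 and 1.21. This alternative was added after seeing the data. The row of that form held no more reads than the row used. The groups did not overlap, although an exact two-sided permutation test of 2 against 2 libraries cannot go below p = 0.333, the value it gave.

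The desmogleins showed no called change. DSG2 (NM_001943, chromosome 18), which is the desmoglein of simple epithelia and of most carcinoma lines, had 127.4 and 128.8 CPM in knockdown libraries, against 119.9 and 119.4 CPM in control libraries. The groups did not overlap, yet the log2 fold change of 0.10 did not pass (edgeR adjusted p = 0.375), and its 95% interval ran from -0.07 to 0.26. DSG3 (NM_001944, chromosome 18), the main antigen of pemphigus vulgaris, had 0 and 1 reads in knockdown libraries and 1 and 0 reads in control libraries, all under the limit of 3 reads that a count of 0 allows. A change in DSG3 was not detectable at this depth.

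All of these cadherin genes lie in 1 cluster on chromosome 18, where DSC3 and DSC2 are adjacent coding genes read from the same strand, and they are followed by DSC1, DSG1, DSG4, DSG3 and DSG2. Of these cadherin genes, only DSC3, DSC2 and DSG2, at both ends of the cluster, had more than 1 read in any library. The genes between them were at or near 0: DSC1 and DSG4, the desmosomal cadherins of the upper epidermis and of hair, had 0 reads in all 4 libraries, and DSG1 had 1 and 0 reads in knockdown and 1 and 0 in control libraries. Beyond DSG2 the liver gene TTR had 0 reads everywhere. The antisense gene DSG2-AS1, whose exons share 171 bases with DSG2 in the GENCODE annotation, averaged 21.8 reads per library against 1540 for DSG2, and no source says whether the counting used strand.

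**Figure D3:**
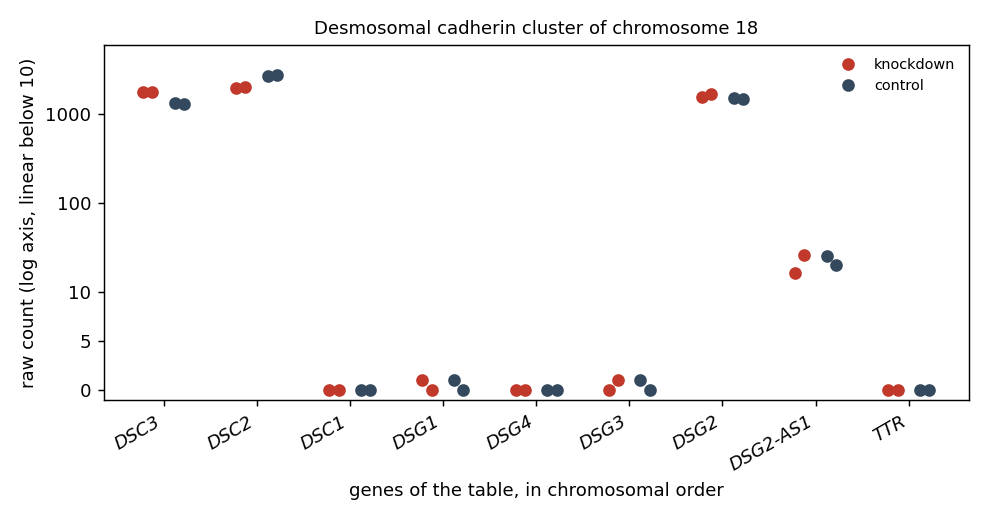
Raw reads (vertical log axis, linear below 10) of the genes of the chromosome 18 desmosomal cadherin cluster that are in the tables, in chromosomal order, for knockdown (red) and control (dark) libraries. DSC3 lies higher and its neighbour DSC2 lower in knockdown libraries, with DSC1, DSG4 and TTR at 0.

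The start regions of the adjacent pair and of PKP1, the genes with the clearest opposite changes, are printed because a reader may wish to compare them. They are RefSeq promoter windows of GRCh38.p14, 250 bases before to 50 bases after the annotated start, whereas the counts were made on hg19. Capitals mark matches to CAGGTG or its reverse complement CACCTG, the E-box that Snail and ZEB factors bind.
DSC2 promoter, chr18:31102372-31102671, minus strand: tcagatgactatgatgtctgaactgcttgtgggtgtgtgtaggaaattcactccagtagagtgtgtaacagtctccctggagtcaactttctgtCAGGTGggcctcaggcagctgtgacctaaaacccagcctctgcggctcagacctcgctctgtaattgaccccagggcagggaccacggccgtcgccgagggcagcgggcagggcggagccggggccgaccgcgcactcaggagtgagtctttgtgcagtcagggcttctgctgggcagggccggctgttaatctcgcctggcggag
DSC3 promoter, chr18:31042693-31042992, minus strand: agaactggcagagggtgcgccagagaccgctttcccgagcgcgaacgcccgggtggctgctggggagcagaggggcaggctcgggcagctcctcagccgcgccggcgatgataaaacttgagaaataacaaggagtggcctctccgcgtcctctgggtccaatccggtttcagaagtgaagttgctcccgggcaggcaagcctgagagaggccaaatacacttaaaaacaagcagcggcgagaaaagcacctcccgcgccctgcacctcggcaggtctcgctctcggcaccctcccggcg
PKP1 promoter, chr1:201283256-201283555, plus strand: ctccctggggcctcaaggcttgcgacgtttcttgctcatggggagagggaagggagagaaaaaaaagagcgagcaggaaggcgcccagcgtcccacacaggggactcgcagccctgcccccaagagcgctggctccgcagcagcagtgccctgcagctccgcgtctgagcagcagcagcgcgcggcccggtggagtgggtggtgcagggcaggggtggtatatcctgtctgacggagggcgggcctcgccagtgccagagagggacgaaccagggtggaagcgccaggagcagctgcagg
DSC2 held 1 match in this window, DSC3 and PKP1 held 0, and the second annotated DSC2 start held 0. Across all 35116 such windows 20.6% held at least 1 match, against 3 of the 10 windows of the desmosome genes, those of DSC2, DSP and DSG2. TGANTCA, the site that AP-1 binds, searched on both strands, was found in 7.71% of all windows and in 1 of the 10, that of PERP. PKP2 and PKP3 have no window in the table. These matches describe letters in short windows and do not show binding.

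Desmocollins are made as a and b forms that differ by a short exon near the 3′ end of the coding sequence. Each form has its own row of counts, and the reads of the short exon were estimated by subtracting the row without it. No source states how reads were counted, and the DSC2 rows differ in annotated length beyond the exon, so this is only an estimate. The exons, from GENCODE transcripts on GRCh38, are shown with the first 21 bases that DSC2 and DSC3 share in capitals.
DSC2 exon 16, chr18:31068299-31068344, minus strand: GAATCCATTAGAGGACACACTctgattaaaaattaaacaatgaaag
DSC3 exon 16, chr18:30994454-30994496, minus strand: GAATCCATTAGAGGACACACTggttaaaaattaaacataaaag
The DSC2 row with the 46-base exon held 6 and 3 more reads than the row without it in knockdown libraries, against 11 and 10 more in control libraries. For the 43-base exon of DSC3 the difference was 3 and 3 reads in knockdown libraries, against 11 and 3 reads in control libraries. By this estimate, over the 4 libraries, the short exon's read density per base was 33.6% of that over the whole transcript for DSC2. For DSC3 it was 53.1%. With so few reads, and with a stretch shared between the genes, a change in the balance of the forms was not detectable, and the gene totals above rest on the rest of the transcripts.

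Among plakophilins, the armadillo proteins that cluster cadherins and desmoplakin, PKP1 fell while PKP2 and PKP3 rose. PKP1 (NM_000299, chromosome 1), best known from suprabasal epidermis, had 434.5 and 466.9 CPM in knockdown libraries, against 685.0 and 759.7 CPM in control libraries. Both knockdown libraries were far below both control libraries, at a log2 fold change of -0.68 ± 0.0842 (SE; edgeR adjusted p = 1.11e-07). Of the 13252 genes tested, 696 had a log2 fold change at least as low, or 5.25%, and 200 had a mean read count at least as high as PKP1. PKP3 (NM_007183, chromosome 11), the plakophilin present in most epithelial cells, had 89.2 and 95.7 CPM in knockdown libraries, against 72.9 and 69.6 CPM in control libraries. The groups did not overlap, and the difference was 0.38 ± 0.0871 on the log2 scale (SE; edgeR adjusted p = 0.000881). PKP2 (NM_001005242, chromosome 12), which is also the plakophilin of heart muscle, had 48.1 and 46.8 CPM in knockdown libraries, against 36.6 and 39.1 CPM in control libraries. Both knockdown libraries were higher, by 0.33 ± 0.096 on the log2 scale (SE; edgeR adjusted p = 0.00778). The PKP2 call is the least secure of the 6: it was lost with DESeq2 (DESeq2 adjusted p = 0.0524) and without control replicate 1 (edgeR adjusted p = 0.0969, log2 fold change 0.28). PKP4 (NM_003628, chromosome 2), also called p0071, which is found at adherens junctions as well as desmosomes, had 139.6 and 140.4 CPM in knockdown libraries, against 140.1 and 140.4 CPM in control libraries. Its values overlapped, its log2 fold change was -0.0026 (edgeR adjusted p = 0.983), and the 95% interval ran from -0.17 to 0.16. The exons of PKP4 share 418 bases with the antisense gene PKP4-AS1, which is not analysed here.

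PKP1 also has a pair of annotated forms, and the exon that separates them is shown because the rows with and without it did not differ by a single read.
PKP1 exon 7, chr1:201319816-201319878, plus strand: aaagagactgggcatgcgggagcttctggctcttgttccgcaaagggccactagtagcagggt
The row that includes this 63-base exon and the row that lacks it held identical counts in every library, 5307 and 6041 reads in knockdown libraries and 8508 and 9229 reads in control libraries. The exon thus added 0 reads out of 29085 over the 4 libraries, which allows up to 3, where the whole transcript held 5.34 reads per base. Reads of the exon were thus not found, and whether the counted hg19 row held it was not checked. In PKP2 the 132-base alternative exon likewise added 0 of 2123 reads. That exon derives from an Alu repeat, and no source says how reads with many genomic matches were treated. In PKP4 the row with an extra 129-base exon held 21 and 33 more reads in knockdown libraries, against 30 and 24 more in control libraries, and the groups overlapped.

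Desmoplakin, the link to keratin, did not pass. DSP (NM_004415, chromosome 6) had 286.2 and 290.8 CPM in knockdown libraries, against 261.7 and 307.1 CPM in control libraries. The knockdown values fell between the control values, with a log2 fold change of 0.02 (edgeR adjusted p = 0.873) and a 95% interval from -0.15 to 0.19. Desmoplakin I contains a longer rod than desmoplakin II. By the same subtraction, the 1797 bases of only the longer form took 16.3% and 16.6% of its row's reads in knockdown libraries. In control libraries these bases took 17.4% and 16.6%. Read density there was 91.2% of the density over the whole longer transcript. The annotated DSP rows, of 9796 and 7812 bases, differ by more than these 1797 bases. The shares and the density may therefore be too high.

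PERP (NM_022121, chromosome 6), a small membrane protein needed for desmosome assembly in mouse epidermis and a target of p53 and p63, rose. It had 142.9 and 131.1 CPM in knockdown libraries, against 111.7 and 102.4 CPM in control libraries. Both knockdown libraries exceeded both control libraries, by 0.36 ± 0.085 on the log2 scale (SE; edgeR adjusted p = 0.00125). The parental PC-3 line lacks functional p53, and TP63 had 1 and 1 reads in knockdown libraries and 2 and 0 reads in control libraries. How either factor bears on the PERP change was not tested. Of 4 tested relatives in the PMP22 and EMP family, 0 rose and 2 fell, against 36.1% of all genes called in either direction. PMP22, the peripheral myelin protein, fell by 0.46 on the log2 scale to 68.5 CPM in knockdown libraries, against 94.0 CPM in control libraries (edgeR adjusted p = 0.000151). EMP1 fell by 0.29 (edgeR adjusted p = 0.0123), a call that was lost without control replicate 1, at -0.16.

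Plakoglobin, encoded by JUP, is the remaining core protein and lay just outside the threshold. It had 53.1 and 54.5 CPM in knockdown libraries, against 44.6 and 47.2 CPM in control libraries. The groups did not overlap, but the log2 fold change of 0.23 did not pass (edgeR adjusted p = 0.0529), and it passed when no normalization factor was used (edgeR adjusted p = 0.0258) and with the replicate number as a block (edgeR adjusted p = 0.0354). The other desmosomal genes not among the 10, DSC1, DSG1 and DSG4, were too low to test.

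On a scale of CPM per kilobase of annotated transcript, which allows genes to be compared, PKP1 led in both groups at 82.7 ± 4.21 in knockdown and 132.6 ± 9.70 in control libraries (SD, n = 2 each). With the length of the row used, DSC2 was at 32.9 ± 0.827 in knockdown and 45.3 ± 1.52 in control libraries (SD, n = 2 each), next to PKP1 in control libraries. With the length of its other form it was at 12.9 ± 0.324 in knockdown and 17.75 ± 0.597 in control libraries (SD, n = 2 each). That would place it eighth and seventh of the 10 genes. The row of that form held 1970 and 2017 reads in knockdown and 2642 and 2711 in control libraries, no more than the row used. Its added bases thus brought no further reads, so these counts do not bear out the longer length. Whether the counted row held those bases was not checked. In knockdown libraries PKP3 and PERP, at 32.9 ± 1.62 and 31.9 ± 1.95, did not differ beyond their spread (SD, n = 2), nor did PERP and PKP4, at 31.5 ± 0.136. In control libraries PKP4 and DSP, at 31.6 ± 0.0555 and 29.03 ± 3.28, did not differ beyond their spread, nor did PKP3 and PERP, at 25.4 ± 0.831 and 25.0 ± 1.54 (SD, n = 2). PKP2 was the lowest of the tested genes, at 11.03 ± 0.226 in knockdown and 8.80 ± 0.406 in control libraries (SD, n = 2 each). Transcript lengths are GENCODE lengths for the row used. For PKP4 this was 4443 bases, where its other form has 5777. The row of that form held 1684 and 1784 reads in knockdown and 1710 and 1682 in control libraries, fewer than the row used. With the longer length PKP4 would stand lower, so its place next to PERP and DSP rests on the length taken. Levels of PKP4 with that length were not computed.

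The makeup of the plakophilins and of the cadherins differed between the groups. PKP1 took 51.8% and 52.8% of plakophilin CPM per kilobase in knockdown libraries, against 65.6% and 68.1% in control libraries. PKP3 took 20.6% and 21.0% in knockdown libraries, against 13.5% and 12.1% in control libraries. The sum over the 4 plakophilins was 154.1 and 162.3 CPM per kilobase in knockdown libraries, against 191.7 and 204.9 in control libraries, so it was lower with knockdown. Without PKP1 the sum was higher with knockdown, at 74.4 and 76.5 CPM per kilobase, against 66.0 and 65.5 in control libraries. The levels of the plakophilin shares and sums rest on the length taken for PKP4. They were not computed with the length of its longer form. Among cadherins DSC2 took 44.1% and 43.8% in knockdown libraries, against 55.1% and 56.6% in control libraries, and DSC3 took 27.1% and 26.2% in knockdown libraries, against 19.2% and 18.3% in control libraries. With the longer DSC2 length DSC2 took 23.6% and 23.4% in knockdown libraries, against 32.5% and 33.9% in control libraries, and DSC3 took 37.0% and 35.8% in knockdown libraries, against 28.9% and 28.0% in control libraries. The levels of the cadherin shares therefore rest on the length taken for DSC2, and the row of the longer form held no more reads. DSC2 was lower and DSC3 higher with knockdown under both lengths. None of these shares overlapped between the groups, and with the lengths of the rows used each gave an exact two-sided permutation p of 0.333, the smallest that 2 against 2 libraries allow.

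**Figure D4:**
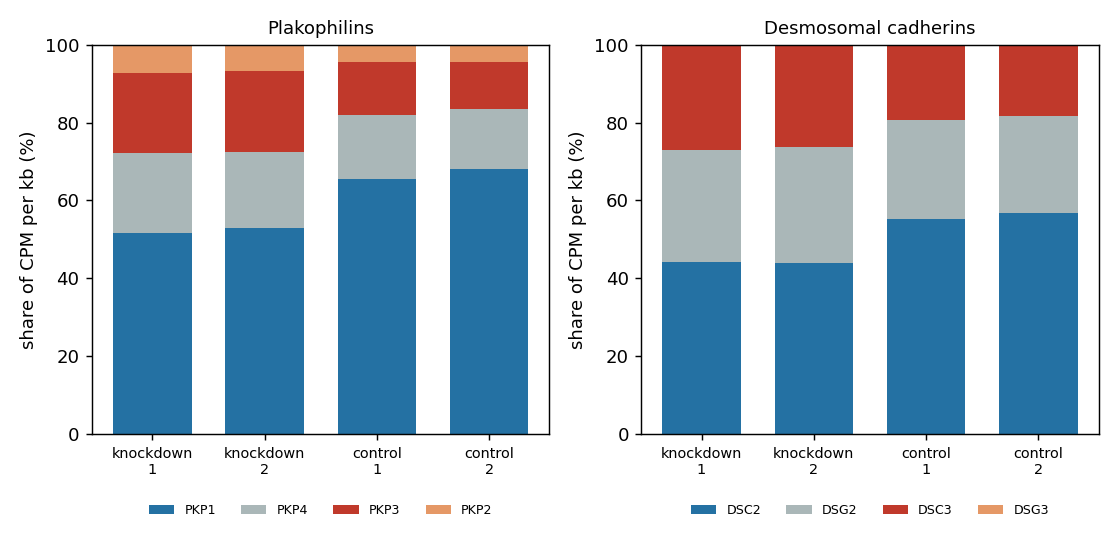
Share of each gene (stacked, in % of CPM per kilobase) among the 4 plakophilins (left) and the 4 desmosomal cadherins (right), for each knockdown and control library. PKP1 made up 51.8% and 52.8% of the plakophilins in knockdown libraries and 65.6% and 68.1% in control libraries. DSC2 made up 44.1% and 43.8% of the cadherins in knockdown libraries and 55.1% and 56.6% in control libraries. These shares rest on the lengths of the DSC2 and PKP4 rows used.

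Genes of neighbouring structures went both ways, and each count has to be read against the 36.1% of all genes that were called, 18.2% higher and 17.9% lower. With so few genes in a list, none of the counts is given as particular to its list. Of 11 adherens junction genes tested 3 rose and 0 fell, with a median log2 fold change of -0.05, against 36.1% of all genes called. CDH1, which encodes E-cadherin, had 31.9 and 33.5 CPM in knockdown libraries, against 12.96 and 13.99 CPM in control libraries, a 2.42-fold rise that exceeded that of any desmosome gene. CDH3, which encodes P-cadherin, rose 1.66-fold and AFDN, the afadin that links nectins to actin, 1.20-fold, the last a call lost in 4 of the 12 alternative settings, with DESeq2 and without knockdown replicate 2, control replicate 1 or control replicate 2. CTNNA1, the alpha-catenin that PC-3 cells are known to have lost, was chosen after its values were seen and had only 34 and 26 reads in knockdown libraries and 28 and 35 reads in control libraries. Of the 2 tested p120-catenin relatives of the plakophilins 1 rose, ARVCF, by a log2 fold change of 0.66, where 18.2% of all genes rose.

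Among 6 plakins, the linker family of desmoplakin, 1 rose and 3 fell, where 18.2% of all genes rose and 17.9% fell. The count of 3 was 1 without control replicate 2. EVPL, the envoplakin of the cornified envelope that also binds desmosomes, rose 1.41-fold to 54.6 ± 5.93 CPM in knockdown libraries, against 38.7 ± 3.31 CPM in control libraries (SD, n = 2 each). PLEC, the plectin that links filaments to hemidesmosomes, fell 1.37-fold, MACF1 1.22-fold and DST 1.21-fold. The MACF1 and DST calls were each lost without control replicate 2, at -0.20 on the log2 scale for both. The hemidesmosome list divided, with 2 of 7 genes higher and 2 lower, against 36.1% of all genes called in either direction: LAMA3, a laminin chain, rose 1.32-fold and ITGA6, an integrin subunit, 1.22-fold. LAMB3 and CD151 fell 1.304-fold and 1.16-fold, calls that were lost in 6 and 4 of the 12 alternative settings. Without control replicate 1 their log2 fold changes were -0.17 for LAMB3 and -0.14 for CD151. The ITGA6 call was lost without knockdown replicate 1.

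Of 12 keratins and other intermediate filament genes tested 3 rose and 1 fell, close to the 36.1% of all genes called, with a median log2 fold change of 0.15. KRT8, a keratin of simple epithelia, rose 1.39-fold, although its many pseudogenes make its reads uncertain, while KRT18, its usual partner, which did not pass and was chosen after its values were seen, had a log2 fold change of -0.12. KRT15, a basal keratin, had 22.4 and 24.1 CPM in knockdown libraries, against 10.6 and 12.8 CPM in control libraries. KRT5, another basal keratin, had only 46 and 25 reads in knockdown libraries, against 7 and 6 reads in control libraries. VIM, the mesenchymal filament protein vimentin, fell 1.26-fold.

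Among genes known to act on desmosomes, 3 of 9 rose and 0 fell, where 36.1% of all genes were called in either direction. They were ADAM10, a protease that sheds cadherin outer domains, at 1.31-fold, PRMT1, an arginine methyltransferase, at 1.29-fold and PRKCA, a kinase that loosens desmosomal adhesion, at 1.20-fold. The ADAM10 call was lost without control replicate 1, and that of PRKCA with DESeq2 and without knockdown replicate 2 or control replicate 2. In the corneodesmosome list 1 of 4 tested genes rose, where 18.2% of all genes did. It was SPINK5, an inhibitor of the kallikreins that cut desmosomes in the skin, at 51.7 and 43.8 CPM in knockdown libraries and 8.78 and 11.3 CPM in control libraries. Of its target proteases, KLK5 and KLK7 had 0 reads in all 4 libraries. KLK14, a kallikrein of the same list, had 1 and 3 reads in knockdown libraries and 4 and 1 reads in control libraries.

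Of 10 tested transcription factors linked to epithelial state 1 rose and 5 fell, where 18.2% of all genes rose and 17.9% fell, with a median log2 fold change of -0.21. SNAI2, a repressor of epithelial cadherin genes, fell 3.08-fold and ZEB1, another such repressor, 1.33-fold. KLF4 and KLF5, zinc finger factors of epithelial cells, fell 1.44-fold and 1.28-fold. The other gene that fell was ELF3, at 1.22-fold, and the gene that rose was SNAI1, at 1.49-fold, both outside the naming rule and added after their values were seen. GRHL2, OVOL1 and OVOL2, epithelial factors named after their values were seen, had at most 2 reads in any library. How any of these bears on the desmosome genes was not tested.

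**Figure D5:**
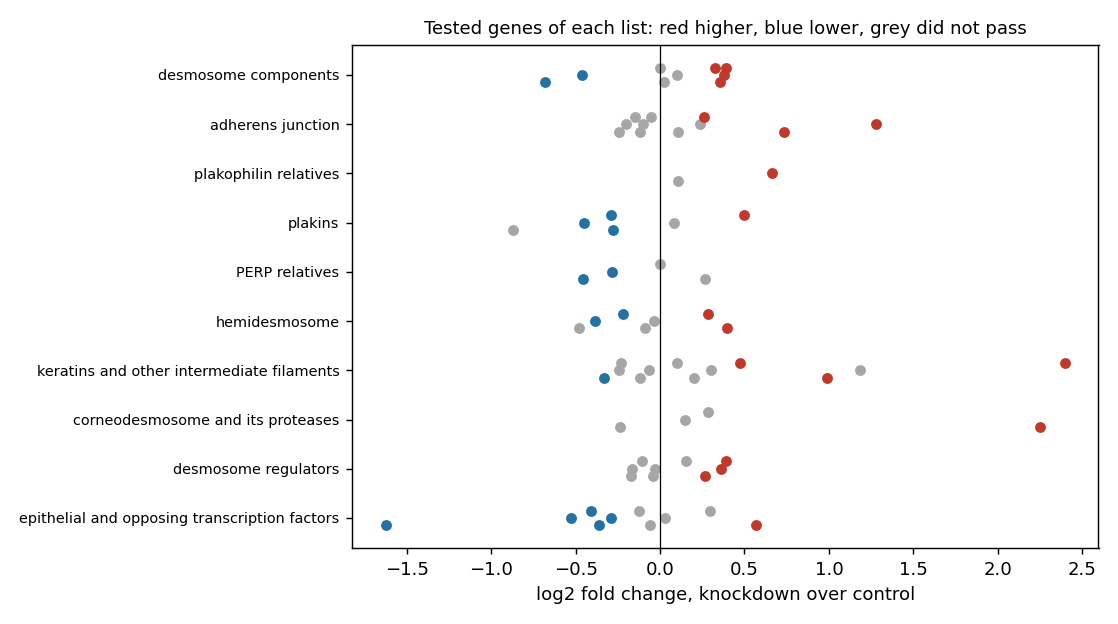
Log2 fold change, knockdown over control, of every tested gene in the desmosome list and in 9 related lists, with genes that rose in red, genes that fell in blue and genes that did not pass in grey. The desmosome genes lie between -0.68 and 0.39. This range is narrower than that of the keratins or transcription factors, and wider than that of the hemidesmosome genes or desmosome regulators.

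The libraries matched the line in their markers. KRT8, KRT18, KRT19, EPCAM and CDH1 were all present. Of these 5, 3 rose, where 18.2% of all genes did: KRT8, CDH1 and EPCAM, an epithelial adhesion protein that rose 1.42-fold. KRT18 and KRT19 did not pass, at log2 fold changes of -0.12 and -0.07. The luminal prostate genes KLK3 and KLK2 had 0 reads in all 4 libraries. Of 9 keratinocyte markers 2 were tested, KRT10 and FLG, and 0 were called. KRT10 had 140 and 144 reads in knockdown libraries and 180 and 92 reads in control libraries. FLG had 61 and 71 reads in knockdown libraries and 40 and 76 reads in control libraries. IVL, LORICRIN, SPRR1B and DSC1 were at 0. The summed level of the 9 was 16.5 to 16.8 CPM in knockdown libraries and 13.91 to 17.95 CPM in control libraries. Of 5 leukocyte markers PTPRC and CD3E were at 0, and the summed level of the 5 was 47.4 to 49.9 CPM in knockdown libraries, against 88.9 to 91.1 CPM in control libraries. CD68, a lysosomal protein that many cell types make, accounted for nearly all of it and fell. LYZ rose and CD79A fell, each with 50 or fewer reads in any library. The LYZ call was lost in 1 of 11 settings, since DESeq2 gave it no adjusted p. That of CD79A was lost in 3 of 12. Without control replicate 1 CD79A was at -0.70. Of 6 fibroblast and endothelial markers COL1A2 rose and PECAM1 fell, calls lost in 1 and 9 of the 12 settings. COL1A1 did not pass, at 331 and 410 reads in knockdown libraries and 415 and 365 reads in control libraries. DCN was at 1 read at most and LUM at 0. The summed level of the 6 was 54.9 to 58.4 CPM in knockdown libraries and 49.9 to 53.4 CPM in control libraries. Without control replicate 1 COL1A2 was at 0.33 on the log2 scale. What part any of these cells has in the desmosome results was not tested.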

How the data were processed

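Each library has its own deposited table of counts for RefSeq transcripts, judged to be raw from the values, which are whole numbers with differing totals. Per the submitters' processing notes, which assign no roles, the tools were TopHat2, DESeq 1.8.3, edgeR and HOMER and the build was hg19. No source states the kit, the strand or how reads were counted. The design text speaks of a knockout and the labels of RNAi; the samples are treated as knockdowns.

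Of 38767 rows, 37205 were named through a RefSeq gene table and 472 through GENCODE metadata, and 1090, with 1.38% to 1.40% of the counts, were left out. The row with the highest mean stood for each of 7519 symbols with several rows, since isoforms count the same reads again. Counts were scaled by TMM, kept by filterByExpr at a minimum count of 10 and a minimum total of 15, and tested by edgeR 4.0.16 (R 4.3.3), whose quasi-likelihood model held only the group. P-values were Benjamini-Hochberg adjusted over 13252 genes, with calls at 0.05. The standard error is the log2 fold change divided by the root of the F statistic. The common biological coefficient of variation was 5.96%, and replicates differed by more than counting noise (chi-square per gene of 4.28 between knockdown and 4.96 between control libraries). The test was checked on simulated counts with the same dispersion for every gene, a simpler setting than these data. That check does not measure how reliable the calls are here. A floor of 3 counts reflects counting error alone. Isoform exons, lengths and overlaps are from GENCODE on GRCh38, another build than hg19, and whether the counted rows held the same exons was not checked.

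The members and lists were chosen with earlier results of these data known. Named genes were the 10 members, KDM1A, the other desmosomal genes and up to 4 called genes per list with the smallest adjusted p. The 12 alternatives were leaving out each library, summing the rows of a symbol, the replicate number as a block, limma-voom (limma 3.58.1), DESeq2 1.42.0, its size factors within edgeR, no scaling factor, a 1 CPM filter and no filter.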

Additional observations from a re-analysis of the deposited data

How the results depend on the processing

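Under the 12 alternatives PKP1, DSC2, DSC3, PKP3 and PERP kept their direction and stayed past the threshold in each of them, with log2 fold changes of -0.76 to -0.60, -0.50 to -0.43, 0.34 to 0.44, 0.33 to 0.42 and 0.29 to 0.42. PKP2 kept its direction in all 12 and its call in 10. It was lost with DESeq2, at a log2 fold change of 0.32 (DESeq2 adjusted p = 0.0524), and without control replicate 1; leaving out each library in turn gave 0.28 to 0.37 (edgeR adjusted p = 0.0156 to 0.0969). DSG2, DSP and PKP4 passed in 0 of 12 settings. DSP ranged from -0.09 to 0.14 and PKP4 from -0.01 to 0.03, so neither has a settled sign. DESeq2 called 1564 genes higher, against 2412 with edgeR; the other counts over all genes, and the counts of desmosome genes called, stayed within 1.5 times. Of 384 counts of called genes in the other lists over the alternatives, 36 moved further, all from counts of 3 or fewer. Among them, the plakins that fell numbered 1 without control replicate 2, and the hemidesmosome genes that fell numbered 0 with no normalization factor and without knockdown replicate 1. The replicate numbers are shared between groups, but nothing says that they pair cultures, and the deviations of same-numbered libraries had a correlation of 0.067 over genes. With the replicate number as a block the calls of the 9 genes were as without it, 4 higher and 2 lower, and PKP2 had an adjusted p of 0.00493. Depth limits DSG3, the other squamous cadherins and the short alternative exons, where changes could not be detected.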
